A study of Homo sapiens with 46 samples.

Results

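The 33 genes described here are targets of the tumour suppressor p53 that lie outside its death and feedback arms. They were chosen by symbol, with earlier results of these data known, so their shares called are no independent test against all genes. All 33 had a row among the 61228 gene rows for the HCT116 libraries and among the 30160 for the HEK293 libraries. The question was how their transcripts moved when human cells lost Ku, the ring-shaped heterodimer of Ku70 (XRCC6) and Ku80, also called Ku86 (XRCC5), that binds DNA ends and starts non-homologous end joining. p53 is a transcription factor that is stabilised after DNA damage and other stress, when its feedback inhibitor MDM2 no longer drives its breakdown. It then binds response elements in or near target genes, and the products slow the cell cycle, take part in DNA repair, adjust metabolism, remodel organelles and send signals to neighbouring cells.

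RNA was sequenced in 46 libraries of 18 groups, of which 40 came from HCT116, a human colon carcinoma line with wild-type p53, and 6 from HEK293, a human embryonic kidney line that carries adenovirus E1 genes. In the first model, Ku80-AID HCT116 cells, Ku80 carries a degron and is degraded when indole-3-acetic acid (IAA, 100 µM) and doxycycline (0.5 µg/mL) are added. All IAA groups received both agents, and their controls received DMSO without doxycycline, so IAA and doxycycline cannot be told apart. Clones 1, 7 and 9 were sampled after 2, 4 and 6 days of IAA, after 2 days of DMSO, and after 4 days of a CDK4/6 inhibitor alone or with IAA. Clones 1 and 9 were also sampled after 1 day of DMSO or IAA and after 2 days of the inhibitor alone or with IAA. The labels do not name the inhibitor, and the 2-day DMSO libraries served as controls for 2, 4 and 6 days. A further 3 Ku80-AID clones (1, 13 and 15) are MAVS-/- and so lack the adaptor of RNA sensing by RIG-I-like receptors; they were sampled after 4 days of DMSO or IAA. In the second model, Ku86Flox/-:CreERT2 HCT116 cells have 1 floxed and 1 missing Ku86 allele and a Cre recombinase that 4-hydroxytamoxifen (4OHT, 50 nM) activates. Ku86Flox/- cells without Cre also carry the missing allele, and both lines were sampled after 4 days of 4OHT or ethanol, with 2 libraries each. In the third model, Ku70-/- HEK293 clones Sa11, SB and TI live on ectopic Ku70 that needs doxycycline (1 µg/mL). The labels number the ectopic protein upwards over the 6 libraries, and it was read as Ku70 in each. They were sampled on doxycycline and 8 days after its withdrawal. HCT116 RNA was poly-A selected and HEK293 RNA was ribo-depleted, so levels were not compared between the lines.

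Levels are counts scaled to library size (CPM), and differences are log2 fold changes from edgeR's quasi-likelihood test, with a standard error and a Benjamini-Hochberg adjusted p over all genes tested. A gene was said to rise or fall where the adjusted p was under 0.05. In bulk RNA, fewer cells making a transcript and less transcript per cell cannot be told apart. Nothing in the labels says that the pairs of Ku86Flox/- libraries came from separate cultures, so their p-values measure only the spread between these samples, which may be technical.

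Library totals ran from 9527918 to 45747408 counts for the degron clones, 13046742 to 17608963 for the Ku86Flox/- cells and 19568398 to 28483236 for HEK293. The targeted genes followed the labels where the design acts on RNA. In Cre cells XRCC5 was at 257 ± 1.49 CPM (SD, n = 2) in ethanol and 27.8 ± 4.12 CPM (SD, n = 2) in 4OHT, and in HEK293 cells XRCC6 fell by 2.73 on the log2 scale after withdrawal. The degron acts on protein, so XRCC5 RNA checks nothing there, and MAVS RNA was -1.23 on the log2 scale in the MAVS-/- clones against the MAVS-intact ones. Of 10 colon epithelial markers, 7 to 9 had counts in every HCT116 group, and CDX1 was at 0 in all of them. The 8 libraries of the 1-day groups and the 2-day inhibitor groups stood apart. Each held reads of the neuronal HEK293 marker NEFL, at 3.34 to 5.57 CPM against at most 0.117 CPM in the other 32 HCT116 libraries and 104 to 122 CPM in HEK293, and of LIN28B, at 4.30 to 5.99 CPM against at most 1.104. Of the 6 HEK293 markers 4 to 6 had counts in these groups and 3 in the 2-day DMSO controls, and the summed level was 44.5 to 62.3 CPM against 56.5 to 66.4 CPM in the controls. Results that rest on these 8 libraries are given with that fact, and its part in them was not tested.

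Sequence around the start sites was examined because p53 reads its targets through response elements. RefSeq windows (GRCh38.p14) from 250 bases before to 50 bases after a gene start were at hand for 27 of the 33 genes, in 36 windows. Not matched were GADD45A, FBXO22, PHLDA3, RRM2B, ASCC3 and TP53INP1. The p53 half-site consensus, a palindrome of 10 bases and so the same on both strands, was present in 7 of the 36 windows (19.4%), against 2329 of all 35116 windows of that length (6.63%). A full site, with a pair of half-sites at most 13 bases apart, was found in DDB2 alone among these genes (1 of 36 windows) and in 10 of 35116 windows (0.0285%). The 7 stretches with a match are shown 5′ to 3′ on the gene's strand, with the half-sites in capitals, since these genes did not share 1 response below.
DDB2, chr11:47214959-47215003, + strand: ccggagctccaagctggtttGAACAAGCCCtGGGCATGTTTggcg
FDXR, chr17:74872976-74873025, - strand: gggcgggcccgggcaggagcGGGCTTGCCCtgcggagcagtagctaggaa
SESN1, chr6:109009008-109009057, - strand: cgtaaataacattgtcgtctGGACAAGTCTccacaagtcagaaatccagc
PLK2, chr5:58460189-58460238, - strand: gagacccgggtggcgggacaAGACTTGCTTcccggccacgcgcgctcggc
AEN, chr15:88621286-88621335, + strand: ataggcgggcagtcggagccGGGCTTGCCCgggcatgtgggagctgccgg
EI24, chr11:125569447-125569496, + strand: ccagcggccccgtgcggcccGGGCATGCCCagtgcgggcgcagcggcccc
ABHD4, chr14:22598274-22598323, + strand: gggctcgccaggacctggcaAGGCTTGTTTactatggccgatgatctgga
In DDB2 the pair of half-sites is separated by 1 base and lies 6 to 26 bases after the start. In FDXR and EI24 the half-site ends within 2 bases before the start, and in PLK2 it lies 132 to 123 bases before it. A match is a description of these letters and no evidence of binding, and a window without a match says nothing about elements elsewhere in a gene.

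**Figure D1:**
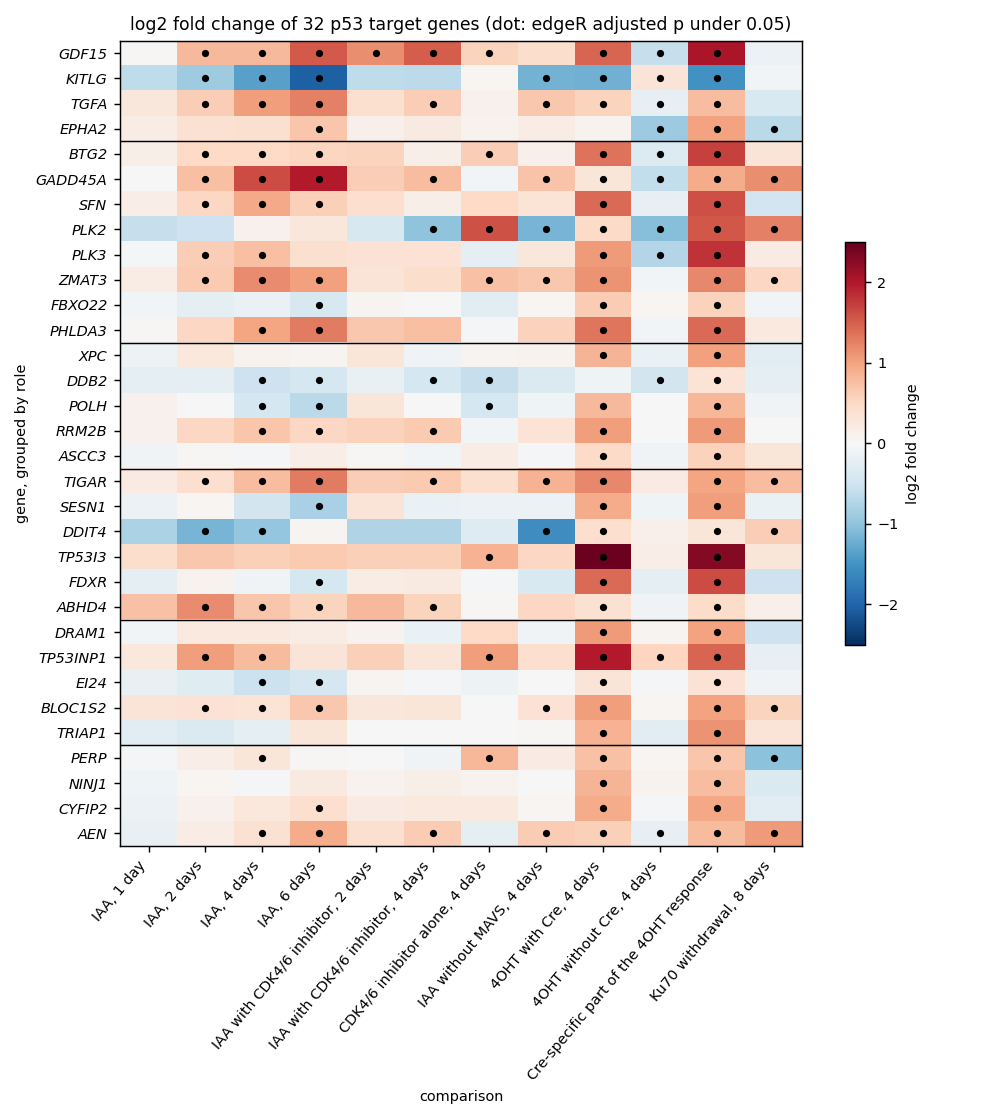
Log2 fold change of 32 genes (rows, grouped by role) in 12 comparisons (columns), from red for higher to blue for lower on a scale from -2.5 to 2.5, with a dot where edgeR's adjusted p was under 0.05. SPATA18 is left out because it was at or near 0 in HCT116. The column for the Cre-specific part is red and dotted for 31 genes, while the IAA columns are mixed.

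Nearly all of these genes rose where 4OHT activated Cre in Ku86Flox/- cells. No cells with Cre but without a floxed Ku86 were sampled, so loss of Ku86 and Cre activity cannot be told apart. With 4OHT in Cre cells, 29 of the 32 genes tested rose and 1, KITLG, fell, against 54.0% of all genes called in either direction (26.4% higher and 27.5% lower). SPATA18 was not tested, as it did not pass the filter on low counts. In cells without Cre, 4OHT itself moved 11 of the 32 genes, 2 higher and 9 lower, against 13.7% of all genes (7.26% higher and 6.44% lower). The Cre-specific part, which is the 4OHT response with Cre minus the response without Cre, was called for all 32 genes, 31 higher and 1 lower, against 41.2% of all genes in either direction (18.8% higher and 22.4% lower). Its median over these genes was 0.999, with a median of -0.027 over all genes tested. Without 1 library at a time the count stayed between 29 and 32, and the genes that lost their call were ABHD4, DDB2 and DDIT4.

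The 8 genes that restrain growth and division all rose, by 0.58 to 1.81 on the log2 scale in the Cre-specific part. PLK3, a polo-like kinase of the stress response, was at 69.3 and 65.5 CPM in Cre cells in ethanol and 138 and 145 in 4OHT, while without Cre it was at 96.1 and 106 in ethanol and 58.7 and 62.6 in 4OHT. The Cre libraries moved up and the libraries without Cre moved down, with no overlap within either line. The Cre-specific difference was 1.81 ± 0.09 (SE), adjusted p = 8.40e-09. BTG2, an antiproliferative protein that recruits the CCR4-NOT deadenylase, was at 67.1 and 70.2 CPM in ethanol and 176 and 178 in 4OHT with Cre. Without Cre it stood at 81.8 and 76.1 and then 61.6 and 63.4 CPM, giving a Cre-specific difference of 1.70 ± 0.08 (SE), adjusted p = 5.29e-09. SFN, or 14-3-3 sigma, which holds CDK1-cyclin B in the cytoplasm, rose from 234 and 212 CPM to 598 and 587 with Cre. Its levels without Cre, 279 and 299 in ethanol and 240.3 and 263 in 4OHT, did not pass the test (adjusted p = 0.052), and the Cre-specific difference was 1.61 ± 0.09 (SE), adjusted p = 1.39e-08. PLK2 (1.55 ± 0.08), the AKT repressor PHLDA3 (1.41 ± 0.13) and the RNA-binding protein ZMAT3 (1.19 ± 0.09) followed. The smallest differences of this role were those of GADD45A, a stress sensor that inhibits CDK1-cyclin B (0.92 ± 0.12), and the F-box protein FBXO22 (0.58 ± 0.10). GADD45A with Cre changed by only 0.30, and most of its Cre-specific difference lay in the change of -0.62 without Cre. PLK2 and EPHA2 shared that feature, with -1.06 and -0.91 without Cre.

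All 6 metabolic genes rose. TP53I3, the quinone oxidoreductase PIG3, had the largest difference of all 32, from 22.9 and 24.5 CPM in ethanol to 127 and 134 in 4OHT with Cre. Without Cre it was at 16.5 and 19.2 and 20.3 and 19.2 CPM, so the 2 treated Cre libraries stood far above the other 6. The Cre-specific difference was 2.30 ± 0.12 (SE), adjusted p = 1.27e-08. FDXR, the mitochondrial ferredoxin reductase, was at 89.3 and 85.3 CPM in ethanol and 229.8 and 233 in 4OHT with Cre. Without Cre its levels were 125 and 143 and 109 and 121, and the Cre-specific difference was 1.62 ± 0.10 (SE), adjusted p = 3.39e-08. The sestrin SESN1 (1.04 ± 0.12) and the bisphosphatase TIGAR (0.99 ± 0.11) rose as well. The lipid hydrolase ABHD4 (0.45 ± 0.14) and the mTORC1 inhibitor DDIT4 (0.30 ± 0.10) rose least. DDIT4 was at 114 and 106 CPM in ethanol and 149 and 146 in 4OHT with Cre, and at 113 and 132 and 128 and 138 without. Its Cre-specific call (adjusted p = 0.0286) was lost without any 1 of 5 libraries, among them the ethanol Cre replicate 2 (adjusted p = 0.130). With limma on log2(TPM + 1) its difference was 0.03 (adjusted p = 0.816). That of ABHD4 was lost without any 1 of 3 libraries, at an adjusted p of at most 0.0778, and turned to -0.08 with limma on TPM.

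Each of the 5 repair genes rose in the Cre-specific part, by 0.34 to 1.06. The highest were p53R2, encoded by RRM2B (1.06 ± 0.09), a subunit of ribonucleotide reductase, and the damage sensor XPC (1.02 ± 0.09) of nucleotide excision repair. The translesion polymerase POLH was at 51.4 and 48.7 CPM in ethanol and 88.3 and 87.2 in 4OHT with Cre, against 55.5 and 53.9 and 54.0 and 54.1 without. Its Cre-specific difference was 0.83 ± 0.09 (SE), adjusted p = 5.84e-06. DDB2, the ultraviolet damage sensor whose start holds the full p53 site shown above, was the exception of this role. Its levels with Cre were 69.0 and 68.0 CPM in ethanol and 62.2 and 64.2 in 4OHT, a change of -0.12 ± 0.07 (SE), adjusted p = 0.154. Without Cre it fell, from 87.2 and 84.7 to 59.1 and 66.1 CPM, and only that fall made the Cre-specific difference positive, at 0.34 ± 0.09 (SE), adjusted p = 0.00945. The call of DDB2 was lost without replicate 1 of the 4OHT libraries without Cre (adjusted p = 0.0577) and with limma on log2(TPM + 1) (adjusted p = 0.550).

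Of the organelle genes, 5 of 5 tested rose. TP53INP1, a cofactor of p53 and of autophagy, went from 53.9 and 60.6 CPM in ethanol to 226 and 227 in 4OHT with Cre. It also rose without Cre, from 47.3 and 40.2 to 64.8 and 62.7, and the Cre-specific difference was 1.45 ± 0.11 (SE), adjusted p = 2.63e-07. The mitochondrial lipid carrier TRIAP1 (1.12 ± 0.14), the lysosomal DRAM1 (1.00 ± 0.10) and BLOC1S2 of the BLOC-1 complex (1.00 ± 0.09) rose by like amounts. EI24, an endoplasmic reticulum protein of autophagy, was at 169 and 163 CPM in ethanol and 207 and 205 in 4OHT with Cre, and at 194 and 177 and 179 and 179.6 without. Its Cre-specific difference was small, 0.36 ± 0.08 (SE), adjusted p = 0.002, and with limma on log2(TPM + 1) it was 0.11 (adjusted p = 0.487).

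At the cell surface and in the remaining group, all 4 genes rose, by 0.70 for the desmosomal PERP, 0.77 for the membrane rupture protein NINJ1, 0.80 for the nuclease AEN and 0.96 for the actin regulator CYFIP2. PERP was at 141 and 148 CPM in ethanol and 252 and 229 in 4OHT with Cre, a change of 0.74 ± 0.06 (SE), adjusted p = 3.52e-07. Of the 4 signalling genes, GDF15, a secreted stress cytokine, had the second largest difference of all. It was at 355 and 325 CPM in ethanol and 930.5 and 937 in 4OHT with Cre. Without Cre it fell from 376 and 438 to 257 and 285, and the Cre-specific difference was 2.04 ± 0.10 (SE), adjusted p = 7.74e-09. The EGF receptor ligand TGFA rose (0.77 ± 0.09). EPHA2, an ephrin receptor kinase, was at 375 and 346 CPM in ethanol and 395 and 376 in 4OHT with Cre, and at 539 and 578 and 277 and 318 without. The 4OHT response with Cre did not pass the test (adjusted p = 0.245), so its Cre-specific difference, 1.00 ± 0.10, came from the cells without Cre. KITLG, the ligand of the KIT receptor, was the only gene that fell with Cre, from 504 and 561 CPM to 219 and 247, while without Cre it rose from 558 and 494 to 679 and 629. Its Cre-specific difference was -1.51 ± 0.11 (SE), adjusted p = 1.62e-07.

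**Figure D2:**
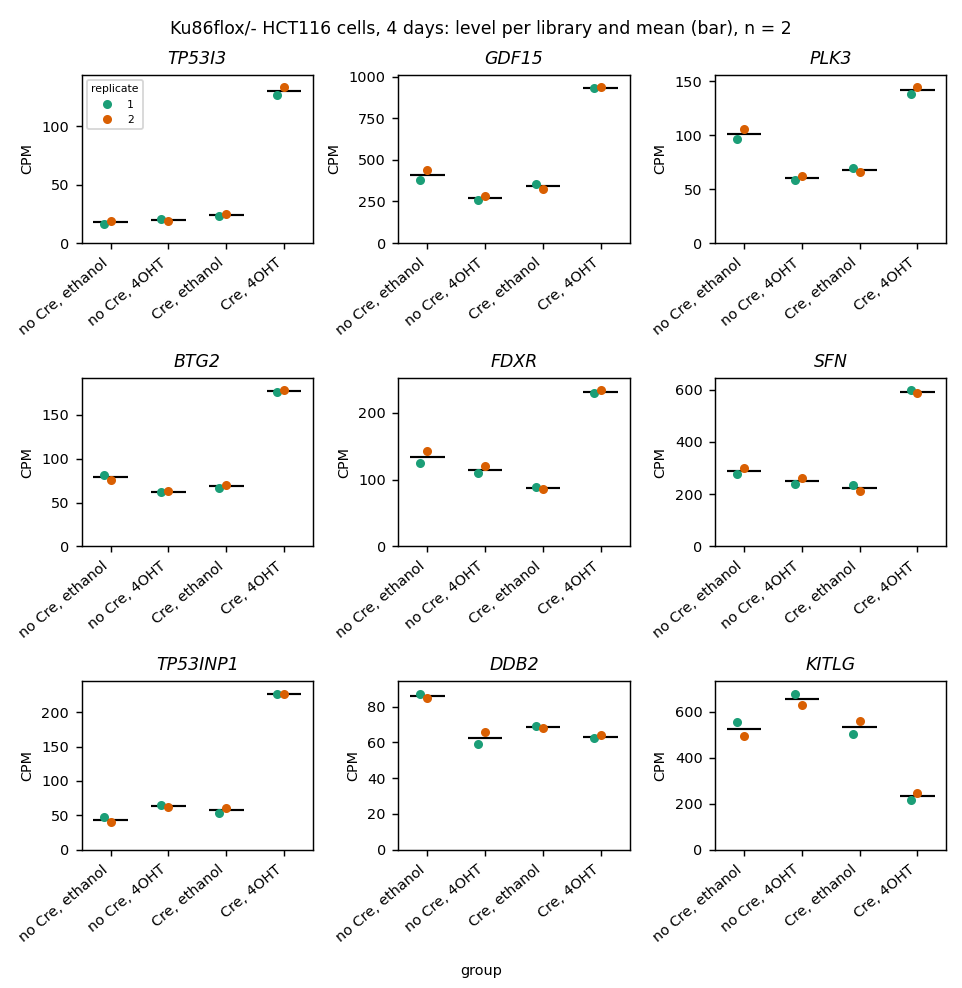
CPM (vertical axes, from 0) of 9 genes in Ku86Flox/- HCT116 cells with and without Cre after 4 days of ethanol or 4OHT (horizontal axes), with a point per library and a bar at the mean of 2. In 7 panels the Cre 4OHT points stand above all others, in that of DDB2 the ethanol libraries without Cre are highest, and in that of KITLG the Cre 4OHT libraries are lowest.

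Degradation of Ku80 gave a mixed response. As a coefficient of variation, edgeR's estimate of spread between libraries of a group was 21.7% for the degron clones. It was 4.63% for the Ku86Flox/- cells and 20.8% for HEK293. Smaller differences could thus pass the test in the Ku86Flox/- cells, and counts of calls are not comparable between the models. After 1 day of IAA none of the 33 genes was called by edgeR (0.185% of all genes were, 0.117% higher and 0.0689% lower), 4 had an unadjusted p under 0.05, and DESeq2 and limma on log2(TPM + 1) called 0 as well. A fit of the 1-day groups alone called 5, for which the share of all genes is not given. These 1-day libraries are among the 8 with reads of HEK293 markers. After 2 days 11 genes rose and 2 fell, against 19.1% of all genes called (9.12% higher and 9.94% lower). At 4 days 15 rose and 5 fell, against 32.8% of all genes (17.9% higher and 14.9% lower), and at 6 days 14 rose and 7 fell, against 35.2% (17.8% higher and 17.5% lower). The share of the 33 genes called higher was thus above that of all genes at 2, 4 and 6 days, and the median difference was 0.25, 0.29 and 0.32 against 0, 0.04 and 0 over all genes. These 3 comparisons share their DMSO controls, sampled at 2 days, so at 4 and 6 days IAA and day cannot be told apart. Without 1 library at a time the count at 4 days ran from 17 to 19, and limma on log2(TPM + 1) called 12.

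Of the 8 growth-restraining genes, 5 rose at 2 days, 6 at 4 days and 5 at 6 days. GADD45A had the largest difference at 4 days. In clones 1, 7 and 9 in that order it was at 44.8, 46.8 and 45.2 CPM in DMSO, 79.1, 81.1 and 69.4 after 2 days of IAA, 124, 162 and 140.0 after 4 days and 199, 186 and 155 after 6. All 3 clones rose from DMSO to 2 days and from 2 to 4 days, without overlap. Against DMSO the difference was 1.64 ± 0.15 (SE), adjusted p = 5.61e-09 at 4 days, and 4 against 2 days gave 0.89 ± 0.15 (SE), adjusted p = 0.000362. ZMAT3 was at 71.0, 69.0 and 61.6 CPM in DMSO and 117, 197 and 143 at 4 days, higher in each clone, with clone 7 highest. Its difference was 1.18 ± 0.16 (SE), adjusted p = 2.46e-06. PHLDA3, which holds AKT off the membrane, was at 8.80, 9.29 and 11.0 CPM in DMSO and 28.2, 18.9 and 10.0 at 4 days. Clones 1 and 7 were higher, clone 9 was slightly lower, and the groups overlapped. The difference was 0.99 ± 0.27 (SE), adjusted p = 0.00516, and it lost its call without the 4-day library of clone 1 (adjusted p = 0.0747), with limma on log2(TPM + 1) (adjusted p = 0.0767) and when just the DMSO and 4-day IAA libraries were fitted (adjusted p = 0.0503). SFN (0.96 ± 0.18), PLK3 (0.76 ± 0.17) and BTG2 (0.51 ± 0.13) also rose at 4 days. Against the 1-day DMSO libraries SFN was 0.066 at 2 days (adjusted p = 0.804) and 0.14 at 6 days (adjusted p = 0.577). PLK2 (0.12 ± 0.33, adjusted p = 0.844) and FBXO22 (-0.16 ± 0.13, adjusted p = 0.406) did not pass the test at 4 days, and FBXO22 fell at 6 days (-0.40 ± 0.13), a call lost against the 1-day DMSO libraries (-0.25, adjusted p = 0.163).

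Signals moved in both directions. TGFA was at 67.8, 73.5 and 79.0 CPM in DMSO, 111, 115 and 111 at 2 days, 135, 179.8 and 139 at 4 days and 194, 161 and 175 at 6 days. Each clone was above its DMSO level at every time, and the 4-day difference was 1.04 ± 0.12 (SE), adjusted p = 1.18e-07. GDF15 went from 127, 147 and 112 CPM in DMSO to 269, 202 and 207 at 4 days and 306, 461 and 356 at 6 days. Its difference was 0.81 ± 0.18 at 4 days and 1.54 ± 0.18 at 6 days, and 6 against 4 days passed the test (0.73 ± 0.18, adjusted p = 0.00882). EPHA2 rose at 6 days only (0.69 ± 0.18), with 0.40 ± 0.18 at 4 days (adjusted p = 0.098), and 6 against 4 days did not differ beyond the spread (adjusted p = 0.314). KITLG fell, as it did with 4OHT in Cre cells. It was at 1245, 1355 and 1136 CPM in DMSO, 696, 804 and 519 at 2 days, 291, 689 and 486 at 4 days and 289, 315 and 300.2 at 6 days. Each of these IAA libraries lay below every 2-day DMSO library, and the difference was -1.35 ± 0.25 (SE), adjusted p = 0.000126 at 4 days and -2.05 ± 0.26 at 6 days. Against the 1-day DMSO libraries, where KITLG was at 734 and 629 CPM, the difference was -0.018 at 2 days (adjusted p = 0.969) and -0.48 at 4 days (adjusted p = 0.140).

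Repair genes were split. RRM2B rose at 4 days (0.68 ± 0.19), a call lost without the 4-day library of clone 7 (adjusted p = 0.0841), whereas DDB2 and POLH fell. DDB2 was at 51.9, 52.8 and 49.2 CPM in DMSO, 37.5, 35.3 and 34.9 at 4 days and 37.7, 35.2 and 41.4 at 6 days, lower in all 3 clones at both times. The 4-day difference was -0.51 ± 0.13 (SE), adjusted p = 0.00275. POLH was at 64.1, 67.1 and 58.6 CPM in DMSO, 65.0, 66.9 and 57.1 at 2 days, 44.9, 55.1 and 40.02 at 4 days and 41.0, 37.4 and 39.7 at 6 days. Levels at 2 days were close to those in DMSO, and the fall came between 2 and 4 days (-0.43 ± 0.12, adjusted p = 0.0221). Against DMSO the 4-day difference was -0.44 ± 0.12 (SE), adjusted p = 0.00513. Both calls were lost with the 1-day DMSO libraries as controls, where the 4-day differences were -0.14 for DDB2 (adjusted p = 0.439) and -0.10 for POLH (adjusted p = 0.534). The 6-day call of DDB2 was lost with those controls too (-0.05, adjusted p = 0.795). XPC (0.09 ± 0.15) and the helicase ASCC3 (-0.04 ± 0.16) were near 0 at 4 days and passed no test at any time.

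In metabolism, TIGAR and ABHD4 rose at 2, 4 and 6 days, the 4-day call of ABHD4 (0.69 ± 0.19) being lost without the IAA library of clone 1 (adjusted p = 0.0513). The 2-day call of TIGAR was lost with the 1-day DMSO libraries as controls (0.33, adjusted p = 0.0868), and with limma on log2(TPM + 1) its calls at 2 days (adjusted p = 0.0981) and 4 days (adjusted p = 0.131) were. TIGAR, which lowers fructose-2,6-bisphosphate, reached 96.0, 89.5 and 101 CPM at 6 days from 35.0, 41.2 and 40.8 in DMSO, and its difference grew from 0.78 ± 0.14 at 4 days to 1.29 ± 0.14 at 6 days, with an adjusted p of 0.0161 for 6 against 4 days. DDIT4 dipped and came back. It was at 81.6, 41.7 and 51.5 CPM in DMSO, 29.96, 21.4 and 26.4 at 2 days, 34.7, 21.6 and 32.4 at 4 days and 55.9, 69.8 and 56.7 at 6 days. Clone 1 held the highest DMSO level, and the 2-day and 4-day libraries all lay below the controls. The difference was -1.17 ± 0.26 at 2 days and -0.98 ± 0.26 (SE), adjusted p = 0.00463 at 4 days, then 0.06 ± 0.25 at 6 days, and 6 against 4 days passed the test (adjusted p = 0.0102). Leaving out the DMSO library of clone 1 ended the 4-day call (adjusted p = 0.0678). SESN1 fell at 6 days (-0.82 ± 0.21), from 29.3, 33.8 and 29.3 CPM in DMSO to 16.5, 21.7 and 14.3, a call lost against the 1-day DMSO libraries (-0.17, adjusted p = 0.555). TP53I3, the strongest riser in the Cre-specific part, was at 11.4, 7.77 and 6.84 CPM in DMSO and 17.1, 9.64 and 12.3 at 4 days, which did not pass the test (0.60 ± 0.26, adjusted p = 0.0875). With the clone as a block it was called at 2, 4 and 6 days, SESN1 fell at 4 days too, and the count at 4 days was 16 higher and 6 lower.

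Organelle genes gave a rise of TP53INP1 that faded and a fall of EI24. TP53INP1 was at 51.6, 57.6 and 45.7 CPM in DMSO, 120.1, 105 and 95.9 at 2 days, 79.5, 94.98 and 92.5 at 4 days and 51.6, 73.0 and 68.8 at 6 days. Its level was highest at 2 days in every clone, and 6 against 4 days fell (-0.47 ± 0.15, adjusted p = 0.0364). EI24 was at 248, 241 and 244 CPM in DMSO, 164, 182 and 159 at 4 days and 213, 156 and 176 at 6 days, below the controls in each library. The 4-day difference was -0.54 ± 0.12 (SE), adjusted p = 0.000679. BLOC1S2 rose at 2, 4 and 6 days (0.34 ± 0.12 at 4 days), TRIAP1 rose from 4 to 6 days (0.54 ± 0.13), and DRAM1 passed no test at any time. Of the surface genes, AEN rose at 4 and 6 days (0.37 ± 0.14 and 0.94 ± 0.14), CYFIP2 at 6 days (0.42 ± 0.12) and PERP at 4 days (0.29 ± 0.11), from 194, 158 and 184 CPM in DMSO to 200.4, 227 and 229. The calls of AEN, PERP and BLOC1S2 at 4 days were each lost without any 1 of 4 or more libraries, at an adjusted p of up to 0.217 for PERP without the DMSO library of clone 7. The 1-day DMSO libraries held more AEN (109.5 and 118 CPM) and more PHLDA3 (25.6 and 25.7 CPM) than any 2-day DMSO library, and with them as controls AEN was -0.81 (adjusted p = 6.74e-05) and PHLDA3 -0.41 (adjusted p = 0.218) at 4 days of IAA. At 6 days neither passed the test against them (adjusted p = 0.186 for AEN and 0.773 for PHLDA3). BLOC1S2 against them was -0.25 at 2 days (adjusted p = 0.111), -0.26 at 4 days (adjusted p = 0.0847) and 0.067 at 6 days (adjusted p = 0.681). Those controls are among the 8 libraries with HEK293 marker reads. In these 8, NEFL was at 3.34 to 5.57 CPM, against 104 to 122 CPM in HEK293. HEK293 cells on doxycycline held AEN at 108, 111 and 116 CPM and PHLDA3 at 18.3, 23.2 and 17.2. The part of these reads in the levels of AEN and PHLDA3 was not tested.

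Between 2 and 4 days GADD45A, TGFA and ZMAT3 rose and POLH fell, against 8.17% of all genes called (4.73% higher and 3.44% lower). Between 4 and 6 days AEN, DDIT4, GDF15, TIGAR and TRIAP1 rose and TP53INP1 fell, against 12.5% (5.36% higher and 7.11% lower). GADD45A in the first step, and AEN and GDF15 in the second, kept their calls without each library in turn. In a fit of only the compared groups GADD45A kept its call in the first step and none of the 6 calls of the second held, with an adjusted p of 0.25 for AEN and 0.175 for GDF15. GDF15 also lost that call with limma on log2(TPM + 1) (adjusted p = 0.118). The other calls were lost without 1 library or another, and without the 2-day IAA library of clone 7 only 1 gene was called in the first step. Against DMSO, 9 of 13 calls at 2 days, 13 of 20 at 4 days and 17 of 21 at 6 days were kept without each library. Lost at 2 days were BLOC1S2, KITLG, SFN and TIGAR, and at 6 days ABHD4, FBXO22, FDXR and RRM2B, the last 4 at an adjusted p of up to 0.151.

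**Figure D3:**
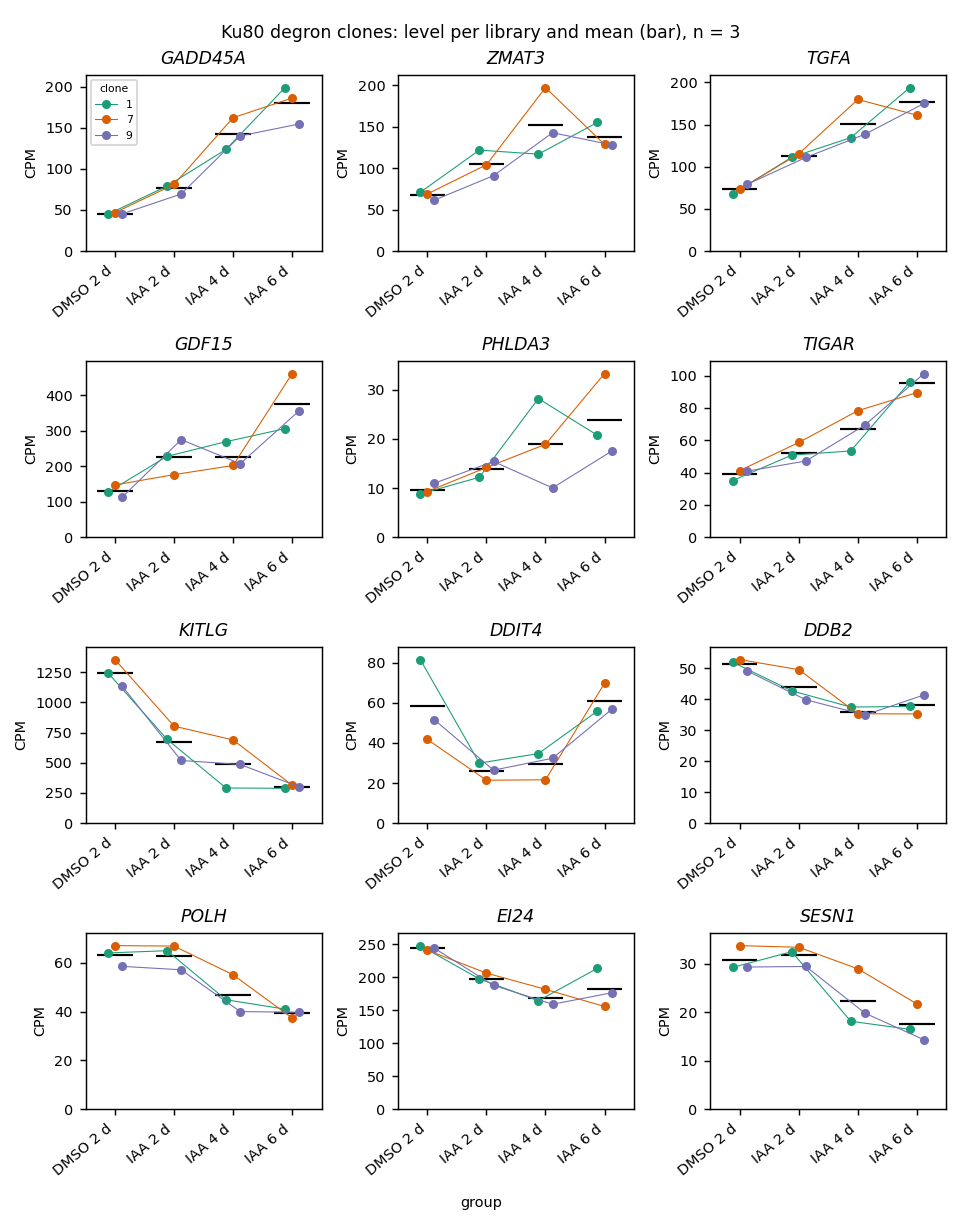
CPM (vertical axes, from 0) of 12 genes in Ku80-AID clones 1, 7 and 9 after 2 days of DMSO and 2, 4 and 6 days of IAA (horizontal axes), with a coloured point per clone, joined by lines, and a bar at the mean of 3. GADD45A, ZMAT3, TGFA, GDF15 and TIGAR lie above their DMSO levels in every clone at every time, and KITLG and EI24 lie below.

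The macrophage marker CD68 moved with IAA, at 5.74, 7.404 and 2.38 CPM in DMSO and 114, 55.9 and 45.1 at 4 days (3.77 ± 0.48 (SE), adjusted p = 6.88e-07). PTPRC and CD3E, the defining markers of white blood cells and T cells, were at 0 in all of these libraries. Of the 8 blood and stromal markers 4 had counts in DMSO and 4 at 4 days, and their summed level was 26.4 to 36.2 CPM in DMSO and 64.4 to 154 CPM at 4 days. Colon epithelial markers moved too. Of the 7 tested, CDH1, CLDN4, KRT18 and KRT19 rose at 4 days of IAA. At 2 days EPCAM (-0.59 ± 0.13, adjusted p = 0.00125) and KRT20 (-2.25 ± 0.56, adjusted p = 0.00524) fell, while CDH1 and CLDN4 rose. The summed level of the list of 10 was 2377 to 2464 CPM in DMSO and 3086 to 4430.3 CPM at 4 days. In the Cre-specific part 6 of 7 rose, the sum being 4175 to 4474 CPM in ethanol and 6415 to 6467 CPM in 4OHT with Cre, and 3874 to 4175 CPM and 3403 to 3624 CPM without. The part of these markers in the results was not tested.

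Responses to the 2 ways of losing Ku80 in HCT116 cells were then compared directly, in 1 fit of all 40 HCT116 libraries. The Cre-specific response differed from the 4-day IAA response for 14 of the 33 genes, in each case with the higher value in the Cre-specific part, against 7.03% of all genes called in either direction (3.08% higher and 3.96% lower). This comparison was added after the data had been seen. Clones, agents and controls also differ between the models and cannot be told apart from the way Ku was lost. The widest gaps were in TP53I3 (1.77 ± 0.46 (SE), adjusted p = 0.015) and FDXR (1.77 ± 0.29 (SE), adjusted p = 0.000375). FDXR was near its DMSO level after 4 days of IAA and fell at 6 days. SESN1 (1.56 ± 0.38 (SE), adjusted p = 0.0113), TRIAP1 (1.43 ± 0.27 (SE), adjusted p = 0.00115) and POLH (1.32 ± 0.22 (SE), adjusted p = 0.000375) followed. GDF15, BTG2, PLK3, XPC, DDB2, EI24, NINJ1, CYFIP2 and BLOC1S2 made up the rest. DDB2, POLH and EI24 were called in opposite directions by the 2 models and also differed in this test, with 0.91 ± 0.23 (SE), adjusted p = 0.0119 for DDB2 and 0.95 ± 0.23 (SE), adjusted p = 0.00843 for EI24. DDIT4 was likewise called in opposite directions, yet its difference did not pass the test (1.34 ± 0.46 (SE), adjusted p = 0.0792). Another 15 genes rose in both models. Shares of all genes that rose in both, or were called in opposite directions, are not given here. Among the 15, ZMAT3 (0.07 ± 0.30 (SE), adjusted p = 0.975), TGFA (-0.21 ± 0.22 (SE), adjusted p = 0.659) and TIGAR (0.26 ± 0.27 (SE), adjusted p = 0.653) had differences between the models within about 1 SE of 0. GADD45A leaned the other way, being larger under IAA, without passing the test (-0.66 ± 0.29 (SE), adjusted p = 0.185).

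**Figure D4:**
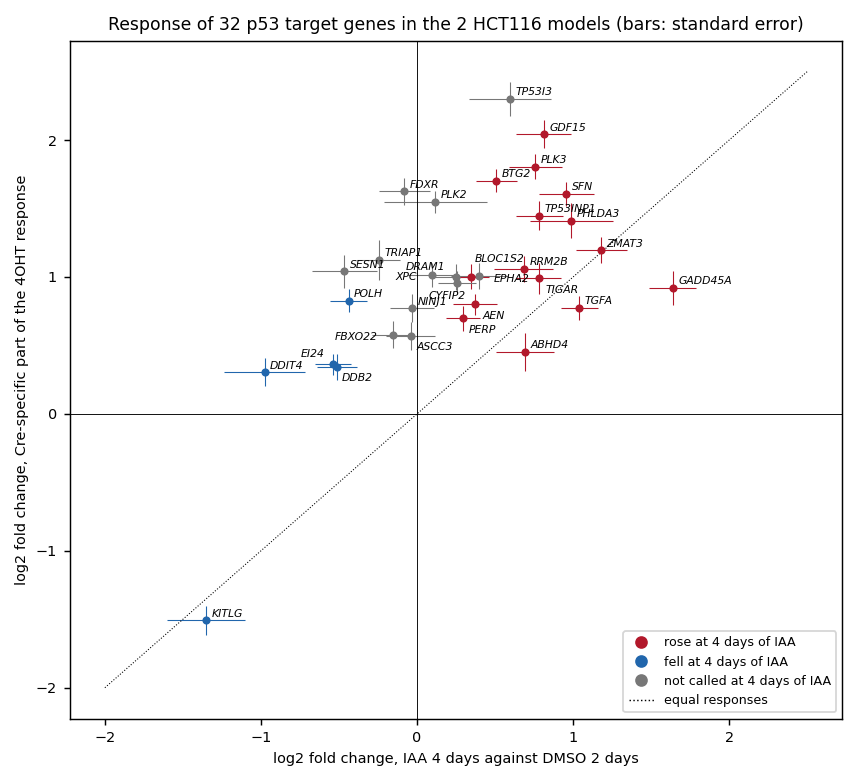
Log2 fold change of 32 genes after 4 days of IAA (horizontal axis) against the Cre-specific part of the 4OHT response (vertical axis), with standard errors as bars and a dotted line where both are equal. Most points lie above that line, TP53I3 stands highest, and KITLG is the only point below 0 on the vertical axis.

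CDK4/6 inhibitors hold cells in G1. With the inhibitor in both arms, 4 days of IAA raised 7 genes and lowered 2, against 11.2% of all genes called (6.13% higher and 5.1% lower). The risers were GDF15, GADD45A, TIGAR, TGFA, AEN, RRM2B and ABHD4, and DDB2 and PLK2 fell. GDF15 was at 141, 200.3 and 229.8 CPM with the inhibitor alone and 661, 513 and 459.7 with IAA as well, higher in each clone (1.52 ± 0.18 (SE), adjusted p = 1.64e-06). PLK2, a polo-like kinase of centriole control, was at 192, 214 and 178 CPM and 96.7, 109.7 and 83.7 (-1.01 ± 0.33, adjusted p = 0.0455). Its call, and those of DDB2, RRM2B and ABHD4, were lost without any 1 of 3 or more libraries, at an adjusted p of up to 0.157. Without the IAA-treated library of clone 7 the count was 5, all higher. With the clone as a block 7 rose and 4 fell, KITLG and DDIT4 being the added pair.

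Only GADD45A had a 4-day IAA response that differed with the inhibitor, against 4.69% of all genes (2.19% upwards and 2.5% downwards). It was at 40.8, 48.1 and 41.7 CPM with the inhibitor alone and 77.6, 78.5 and 66.2 with IAA as well, a smaller rise than without the inhibitor. The change of the response was -0.87 ± 0.21 (SE), adjusted p = 0.0167. It lost its call without the clone 9 library of the inhibitor with IAA (adjusted p = 0.0523), without the DMSO library of clone 9 (adjusted p = 0.0541) and with limma on log2(TPM + 1) (adjusted p = 0.120). The inhibitor libraries without IAA were sampled at 4 days and the DMSO libraries at 2, so day and inhibitor cannot be told apart. Without the 4-day IAA library of clone 1 or of clone 7, 4 and 3 genes were called. With the clone as a block 5 genes differed, EI24 upwards and GADD45A, PLK2, SFN and ZMAT3 downwards. After 2 days, IAA with the inhibitor raised 1 gene, GDF15, against 0.413% of all genes (0.297% higher and 0.117% lower), from 173 and 196 CPM in clones 1 and 9 to 409 and 424 (1.17 ± 0.22 (SE), adjusted p = 0.0156). That call was lost without any 1 of the 4 libraries, and with the clone as a block GADD45A and TIGAR were also called. DESeq2 called 5 genes, adding ABHD4 and BTG2 to those 3, and fitting only the compared groups called 7. Shares of all genes under these alternatives are not given. All 4 libraries hold HEK293 marker reads.

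By itself the inhibitor raised 7 genes and lowered 2 at 4 days, against 7.69% of all genes (3.85% higher and 3.84% lower). PLK2 rose most (1.59 ± 0.33), from 64.6, 67.2 and 62.5 CPM in DMSO to 192, 214 and 178. TP53INP1 (1.04 ± 0.15), TP53I3 (0.86 ± 0.26), PERP (0.82 ± 0.11), ZMAT3 (0.72 ± 0.16), BTG2 (0.62 ± 0.13) and GDF15 (0.56 ± 0.18) also rose. DDB2 (-0.58 ± 0.13) and POLH (-0.44 ± 0.12) fell, and this comparison shares its DMSO libraries with those of IAA. Those DMSO libraries were sampled at 2 days, so day and inhibitor cannot be told apart in this comparison. The calls of GDF15, POLH and TP53I3 were each lost without 1 library or another, and that of GDF15 also with the clone as a block. At 2 days of inhibitor 11 genes rose and 4 fell, against 34.4% of all genes (20.8% higher and 13.6% lower), but the inhibitor libraries hold HEK293 marker reads and their 2-day DMSO controls do not. Against the 1-day DMSO libraries, which hold them too, 7 were called and all were higher, namely BTG2, DDIT4, GDF15, PERP, TP53I3, TP53INP1 and ZMAT3. The share of all genes called against these controls is not given. Without the clone 9 inhibitor library the first count was 7.

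In MAVS-/- clones, 4 days of IAA raised 6 genes and lowered 3, against 7.88% of all genes (4.73% higher and 3.15% lower). GADD45A, ZMAT3, TGFA, TIGAR, BLOC1S2 and AEN rose, and KITLG, DDIT4 and PLK2 fell. BLOC1S2 lost its call with the clone as a block (adjusted p = 0.0543), with DESeq2's size factors (adjusted p = 0.0527), without a filter (adjusted p = 0.183) and with limma on log2(TPM + 1) (adjusted p = 0.0967). GADD45A in clones 1, 13 and 15 was at 42.5, 60.3 and 49.6 CPM in DMSO and 70.2, 104 and 73.6 in IAA (0.70 ± 0.15 (SE), adjusted p = 0.00337). Fitting only the compared groups called 5 genes and ended the calls of GADD45A (adjusted p = 0.0758), ZMAT3 (adjusted p = 0.0707), AEN (adjusted p = 0.0956), BLOC1S2 (adjusted p = 0.112) and PLK2 (adjusted p = 0.198). KITLG fell in each clone, from 611, 870.2 and 503 CPM to 369, 222 and 282 (-1.19 ± 0.25), and DDIT4 from 190.4, 138 and 186 to 58.0, 68.2 and 48.7 (-1.56 ± 0.26). PLK2 went from 208, 49.6 and 194 to 78.8, 41.1 and 82.7 CPM, overlapping between arms, and its call was lost without any 1 of 3 libraries (adjusted p up to 0.185). The response differed from that of MAVS-intact clones for GADD45A alone, against 4.85% of all genes (2.46% upwards and 2.39% downwards), by -0.93 ± 0.21 (SE), adjusted p = 0.00806. Fitting only the compared groups (adjusted p = 0.0802) or limma on log2(TPM + 1) (adjusted p = 0.0898) ended this call, and with the clone as a block EI24 (upwards) and PLK2 (downwards) were called as well. Without 1 library at a time 1 to 3 genes were called, the most without the DMSO library of clone 13. Untreated MAVS-/- clones already differed from untreated MAVS-intact ones in 17 genes, 10 higher and 7 lower, against 46.1% of all genes (24.5% higher and 21.6% lower). PHLDA3 (1.64 ± 0.27), DDIT4 (1.56 ± 0.26), TP53I3 (1.47 ± 0.26) and FDXR (1.39 ± 0.17) were among the higher. Clones and days of DMSO also differ in that comparison, and in that of the IAA responses above, and cannot be told apart from genotype.

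Withdrawal of doxycycline, and so of Ku70, moved 9 of the 33 genes in HEK293 cells. No cells that keep Ku70 were sampled without doxycycline, so its removal and the loss of Ku70 cannot be told apart. After 8 days 7 rose and 2 fell, against 22.0% of all genes called (11.1% higher and 10.9% lower). The share of the 33 genes called in either direction was 27.3%, and the share called higher was 21.2%. Leaving out any 1 library of clone Sa11 or TI left 5 calls, 4 higher and 1 lower. PLK2 in clones Sa11, SB and TI was at 15.8, 24.0 and 18.2 CPM on doxycycline and 30.9, 63.6 and 45.1 without, higher in each clone (1.27 ± 0.26 (SE), adjusted p = 0.00931). GADD45A was at 62.5, 50.5 and 51.2 CPM and then 116, 89.1 and 161, again higher in every clone (1.16 ± 0.20 (SE), adjusted p = 0.00542). AEN, an exonuclease that p53 induces, was at 108, 111 and 116 CPM and then 268, 180.0 and 257 (1.07 ± 0.16 (SE), adjusted p = 0.00293). TIGAR went from 29.96, 35.6 and 27.7 to 51.6, 48.6 and 58.3 CPM (0.77 ± 0.14 (SE), adjusted p = 0.00623). These 4 genes and PERP kept their calls without each library in turn. PERP fell in all 3 clones, from 205, 258 and 209 CPM to 92.4, 133 and 104 (-1.03 ± 0.16 (SE), adjusted p = 0.00376), the opposite of its rise in Cre cells. EPHA2 was at 42.1, 48.7 and 40.1 CPM and 29.03, 33.5 and 19.9, below its control in each clone (-0.67 ± 0.19 (SE), adjusted p = 0.0331). That call and those of DDIT4 (0.62 ± 0.16), BLOC1S2 (0.55 ± 0.15) and ZMAT3 (0.52 ± 0.13), which rose, were lost without any 1 of 4 or 5 of the 6 libraries (adjusted p up to 0.127). With the clone as a block DRAM1, FDXR and SPATA18 fell in addition, for 7 higher and 5 lower. Of the 6 genes with the largest Cre-specific differences, 4 were low here. On doxycycline TP53I3 was at 0.677, 1.98 and 1.05 CPM, GDF15 at 2.12, 3.36 and 1.45, SFN at 1.14, 2.82 and 1.67 and PLK3 at 4.73 ± 0.368 (SD, n = 3). BTG2 (37.9 ± 1.52 CPM; SD, n = 3) and FDXR (17.5 ± 2.25 CPM; SD, n = 3) were higher.

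**Figure D5:**
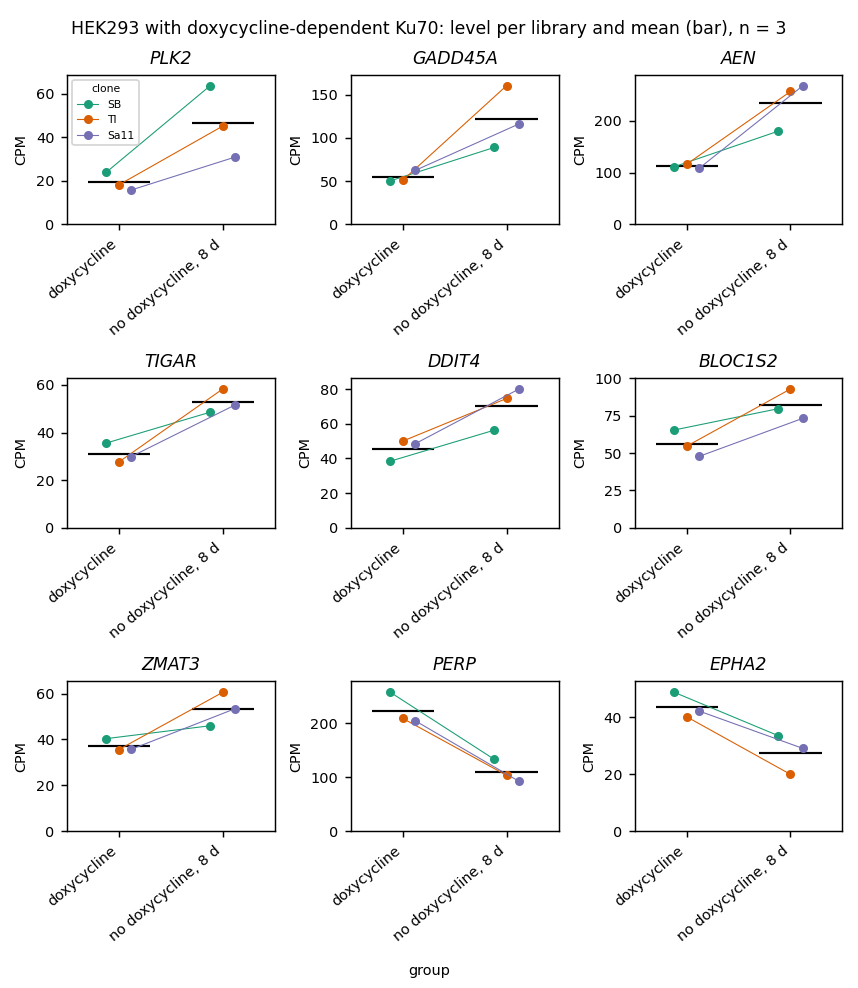
CPM (vertical axes, from 0) of the 9 genes called after Ku70 withdrawal in HEK293, on doxycycline and 8 days without (horizontal axes), with a coloured point per clone, joined by lines, and a bar at the mean of 3. The first 7 genes are higher without doxycycline in each clone, and PERP and EPHA2 are lower.

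Other genes of the p53 pathway gave the setting. Of 20 core, feedback, arrest and death genes, 19 were tested. In the Cre-specific part 16 rose and 1 fell, after 4 days of IAA 11 rose and 1 fell, and after Ku70 withdrawal 3 rose (22.0% of all genes were called there). For the Cre-specific part and 4 days of IAA, the shares of all genes called are those given above. CDKN1A, the p21 inhibitor of cyclin-dependent kinases, was at 146, 193 and 125 CPM in DMSO and 486, 325 and 278 after 4 days of IAA (1.23 ± 0.20 (SE), adjusted p = 2.44e-05). In the Cre-specific part it rose by 1.95 ± 0.08, and it was -0.17 ± 0.17 in HEK293 (adjusted p = 0.537). MDM2, the ubiquitin ligase that holds p53 down, rose by 0.31 ± 0.12 at 4 days of IAA and by 1.42 ± 0.09 in the Cre-specific part, with 0.17 ± 0.15 in HEK293 (adjusted p = 0.484).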

How the data were processed

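Levels come from estimated counts per gene, deposited by the authors without normalization, and from length-normalised TPM values computed by the authors. Salmon 1.10.2, kallisto 0.50.0, DESeq2 and the human build GRCh38 are named without roles, per the submitters' processing notes. HCT116 RNA was poly-A selected and HEK293 RNA ribo-depleted, per the labels' protocols. TPM deposited for HEK293 do not sum to the full total per library, so part of the transcripts is not in that table.

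Expected counts were rounded to whole numbers. Separate fits of the degron clones (32 libraries, 12 groups, 18877 genes), the Ku86Flox/- cells (8 libraries, 4 groups, 16726 genes) and the HEK293 clones (6 libraries, 2 groups, 15549 genes) used edgeR 4.0.16 in R 4.3.3, with TMM scaling, the filterByExpr filter and the quasi-likelihood test. Benjamini-Hochberg adjustment ran over all genes tested, with a threshold of 0.05. The scripts were tested on simulated data. Alternatives were DESeq2 1.42.0, limma 3.58.1 on log2(TPM + 1), which understates changes of low genes, DESeq2's size factors, no filter, fewer groups in the fit, other controls, a block and leaving out each library.

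Same-numbered libraries of the degron and HEK293 groups come from the same clone per the labels, which pairs them. Their deviations from the group means correlated at 0.0761 to 0.232 (IAA, 2 days), 0.026 to 0.0988 (4 days), 0.0587 to 0.0856 (6 days), 0.12 to 0.396 (MAVS-/-) and 0.344 to 0.529 (HEK293). No 2 libraries of a group agreed within sampling noise: the smallest chi-square per degree of freedom between replicates was 1.98.

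The genes, their roles and the lists were chosen with earlier results of these data known. Per-library values were given, in each model, for up to 6 called genes with the largest change in the main Ku-loss comparison, for genes called in opposite directions, and for genes whose IAA response differed with the inhibitor or without MAVS. Other genes with per-library values were chosen after their values were seen. A result for 1 other gene of the pathway is not reported here.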

Additional observations from a re-analysis of the deposited data

Results flagged for a closer look

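GADD45A is listed for 2 comparisons, each time because the difference between 2 responses to the same agent passed edgeR's test. Its 4-day IAA response changed by -0.87 on the log2 scale with the CDK4/6 inhibitor and by -0.93 in MAVS-/- clones. The DMSO and IAA libraries of the MAVS-intact clones enter both differences, so they are not independent of each other. Clones and days of DMSO differ along with MAVS genotype and cannot be told apart from it. In the inhibitor difference the controls were sampled at 4 days with the inhibitor and 2 days without. Day and inhibitor cannot be told apart there. The 4OHT response differed between cells with and without Cre for 32 of 32 genes tested. The Cre-specific part of that response differed from the 4-day IAA response for 14 genes, in a comparison added after the data had been seen.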

How the results depend on the processing

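Counts below are of these genes called in either direction. Shares of all genes called under these settings are not given, so the counts are not set against all genes. Over all calls of single genes, 206 of 208 held with DESeq2's size factors, 202 with DESeq2, 194 without a filter and 134 with limma on TPM, where 65 lost their call and 9 turned in sign. Leaving out each library kept 1037 of 1225. A fit without the 8 libraries that hold HEK293 marker reads, chosen after seeing the data, kept 97 of 110, with 13, 18 and 20 genes called at 2, 4 and 6 days of IAA.

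Without a filter, counts were 2 for IAA at 1 day, 4 for IAA with the inhibitor at 2 days, 6 for the inhibitor change of the IAA response and 3 for the MAVS-/- change, and DESeq2 gave 5, 4 and 2 for the last 3. With limma they were 12 at 4 days and 12 at 6 days of IAA, 7 for 4 against 2 days, 11 for untreated MAVS-/- clones, 2 for the inhibitor change and 7 for 4OHT without Cre. Fitting only the compared groups gave 5 at 1 day and 20 at 2 days of IAA, 1 for 4 against 2 days, 0 for 6 against 4 days, 7 and 14 for IAA with the inhibitor at 2 and 4 days, 5 in MAVS-/- clones, 2 for the inhibitor change and 0 for the MAVS-/- change. With the clone as a replicate block they were 3 for IAA with the inhibitor at 2 days, 5 for the inhibitor change and 3 for the MAVS-/- change, and no other count moved by over 1.5 times. Untreated MAVS-/- and MAVS-intact clones share no clone, so no paired analysis was possible because genotype is nested in clone. Replicate numbers of the Ku86Flox/- libraries are only numbers (r of 0.0333 with Cre and 0.0865 without), and a replicate block there moved no count by over 1.5 times.

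With the 1-day DMSO libraries as controls, 22 genes were called at 2 days of IAA and 7 at 2 days of inhibitor, the latter chosen after seeing the data. Signs turned at 2 days of IAA for AEN (-1.001), BLOC1S2 (-0.25), FDXR (-0.50), PHLDA3 (-0.88) and POLH (0.33). At 4 days they turned for AEN (-0.81), BLOC1S2 (-0.26), NINJ1 (0.95) and PHLDA3 (-0.41), and at 6 days for AEN (-0.24), PHLDA3 (-0.11) and TRIAP1 (-0.77). At 2 days of inhibitor they turned for AEN (-0.53), BLOC1S2 (-0.054), CYFIP2 (0.42), NINJ1 (0.21), PHLDA3 (-0.24), TRIAP1 (-0.025) and ZMAT3 (0.81). With limma on TPM, signs turned at 2 days of inhibitor for BLOC1S2 (-0.11), BTG2 (-0.26), FDXR (-0.10), GADD45A (-0.46), GDF15 (-0.19) and PHLDA3 (-0.17). They also turned in untreated MAVS-/- clones for EPHA2 (-0.58), TIGAR (0.58) and XPC (-0.30), for PLK2 with 4OHT and Cre (-0.17) and for the Cre-specific part of ABHD4 (-0.079). For each of these the cause was not tested.

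Leaving out 1 library at a time gave counts of 0 to 0 (IAA, 1 day), 10 to 11 (2 days), 17 to 19 (4 days), 18 to 20 (6 days), 1 to 5 (4 against 2 days) and 4 to 9 (6 against 4 days). For the inhibitor they were 0 to 0 and 5 to 7 with IAA at 2 and 4 days, 7 to 14 and 6 to 9 alone, and 0 to 4 for the change of the response. For MAVS-/- clones they were 7 to 10 with IAA, 13 to 18 untreated and 1 to 3 for the change. For 4OHT they were 28 to 30 with Cre, 8 to 14 without and 29 to 32 for the Cre-specific part, and for HEK293 5 to 13.

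Depth limits SPATA18, at 0 to 2 counts in 32 of the 40 HCT116 libraries.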

Other observations

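Per length, the order of these genes differed between the lines. In deposited TPM, KITLG was highest in Ku80-AID cells in DMSO for 2 days (mean 544), ahead of EI24 (272), GDF15 (193) and SFN (151). In Cre cells in ethanol, GDF15 (331) and KITLG (299.7) were highest, followed by SFN (196) and EI24 (169). HEK293 cells on doxycycline were led by EI24 (125), ASCC3 (99.4), GADD45A (78.2) and FBXO22 (77.3), and GDF15 (3.29), SFN (2.16), TGFA (1.78) and TP53I3 (1.68) were last. These means come from libraries prepared in different ways, and no test was made between the lines.

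SPATA18, which takes part in mitochondrial quality control, was a gene of the HEK293 libraries, at 8.00 to 18.3 CPM. In HCT116 it had 5 to 13 counts (0.288 to 0.915 CPM) in each of the 8 libraries that also held NEFL reads, and 0 to 2 counts in each of the other 32.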
